A study of Rattus norvegicus with 18 samples.

Results

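Dense tiles of low methylation were described in hippocampal DNA of 18 rats. A tile is a window of 1000 bp on chromosomes 1 to 20 of the rat build rn6. It was kept when it held 40 or more measured cytosines and when their level, averaged over all cytosines and all 18 rats, was under 10%. The rule kept 6356 of the 194691 tiles with a measured cytosine, and 50.3% of the 12629 autosomal tiles that were dense enough. These tiles held 536509 of the 2330883 measured cytosines, or 23%. The tiles were selected on the measured levels of all 18 rats, so that their low average is a description and carries no test.

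The assay was reduced representation bisulfite sequencing (RRBS), in which DNA is cut with MspI, an enzyme that recognises the 4 bases CCGG, and bisulfite turns unmethylated cytosines into bases read as thymine. The study set out to find what 2 rat models of temporal lobe epilepsy share. All rats were adult male Sprague-Dawley animals of 170 to 280 g, and the DNA came from the left hippocampus. The kindling seizure group had 4 rats with hippocampal electrodes that were stimulated electrically until fully kindled. The kindling sham group had 4 rats. The kainic acid seizure group had 3 rats with implanted electrodes in which injections of kainic acid, an agonist of glutamate receptors, induced status epilepticus. The kainic acid sham group had 7 rats. Rats of both seizure groups had 3 class V seizures (generalised convulsions) according to the labels, and their tissue was taken 24 hours after the last seizure. The sources used here do not describe the sham procedure. A whole hippocampus mixes neurons, glia and other cells, so that a change in the makeup of cells and a change within cells cannot be told apart.

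Stretches of DNA rich in CpG dinucleotides, called CpG islands, lie at the promoters of most housekeeping genes and of many developmental genes. Elsewhere in the vertebrate genome most CpGs are methylated, and methylated cytosines are lost over evolutionary time by deamination. Islands escape this loss because they stay unmethylated in the germline. Proteins with CXXC domains bind their unmethylated CpGs, and gain of methylation at an island goes with stable silencing of its gene.

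The tiles looked like CpG island promoters where a promoter could be placed on them. RefSeq promoters of the build GRCr8 (250 bases before to 50 after a start site) were placed by the spacing of their CpGs, and 2420 of the 6356 tiles (38.1%) received one, from 2710 genes. Their median GC content was 67.7%, against 52.3% in the promoters of all 27457 genes. The ratio of observed to expected CpGs had a median of 0.906, against 0.417 in all promoters. The letters GGGCGG, bound by Sp1 family factors, were present on either strand in 79.5% of them and in 34.9% of all promoters. TATAAA was found in 3.65% and in 14.3%, CCAAT in 33.3% and in 37.7%, and CGCGCG in 41.4% and in 11%. Promoters placed in dense tiles with a level of 10 to 20% (1758 genes) had mostly similar values. Their median GC content was 67.3%, their median CpG ratio 0.848, and GGGCGG was present in 78.4%. TATAAA was found in 3.01% of them, CCAAT in 32.1% and CGCGCG in 31.1%. A placement needed 12 or more measured CpGs, so that CpG-rich promoters were favoured and these shares carry no test. Of 5911 promoters placed at exactly 1 site, 5898 (99.8%) fell on the chromosome of the same name.

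The 250 bases before the start site are shown for 5 promoters, since the main pattern in these tiles turns on single sites in them. Capitals mark CCGG, the MspI site. Gabbr2, a subunit of the GABA-B receptor, lies in the tile chr5:62621001-62622000, and Kcnc1, a fast voltage-gated potassium channel of interneurons, in chr1:102414001-102415000. These are ordinary members. Frs2, an adaptor of fibroblast growth factor receptors (chr7:60210001-60211000), Tmem230, a transmembrane protein (chr3:124879001-124880000), and Fam78a (chr3:11102001-11103000) hold the exceptions described further on. Tile coordinates are those of rn6, and letters those of GRCr8, 5′ to 3′ along the gene.
Gabbr2: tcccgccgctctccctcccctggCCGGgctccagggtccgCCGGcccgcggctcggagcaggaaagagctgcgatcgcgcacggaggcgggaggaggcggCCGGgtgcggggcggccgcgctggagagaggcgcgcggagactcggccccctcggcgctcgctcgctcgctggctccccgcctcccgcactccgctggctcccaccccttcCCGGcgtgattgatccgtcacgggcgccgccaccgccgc
Kcnc1: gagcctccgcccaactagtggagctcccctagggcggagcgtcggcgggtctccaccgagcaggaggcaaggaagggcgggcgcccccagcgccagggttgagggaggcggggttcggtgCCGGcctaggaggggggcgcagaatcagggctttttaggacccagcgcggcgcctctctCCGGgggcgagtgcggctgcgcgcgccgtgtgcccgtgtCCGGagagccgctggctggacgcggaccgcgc
Frs2: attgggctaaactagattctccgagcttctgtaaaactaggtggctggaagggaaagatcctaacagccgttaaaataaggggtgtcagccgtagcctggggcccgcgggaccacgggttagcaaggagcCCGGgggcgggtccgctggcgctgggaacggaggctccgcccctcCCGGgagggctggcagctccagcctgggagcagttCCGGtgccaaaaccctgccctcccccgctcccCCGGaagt
Tmem230: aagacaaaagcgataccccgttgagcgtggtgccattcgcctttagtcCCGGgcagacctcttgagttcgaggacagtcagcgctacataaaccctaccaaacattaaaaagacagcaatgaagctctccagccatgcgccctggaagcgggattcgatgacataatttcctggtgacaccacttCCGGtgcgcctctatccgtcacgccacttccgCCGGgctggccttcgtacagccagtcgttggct
Fam78a: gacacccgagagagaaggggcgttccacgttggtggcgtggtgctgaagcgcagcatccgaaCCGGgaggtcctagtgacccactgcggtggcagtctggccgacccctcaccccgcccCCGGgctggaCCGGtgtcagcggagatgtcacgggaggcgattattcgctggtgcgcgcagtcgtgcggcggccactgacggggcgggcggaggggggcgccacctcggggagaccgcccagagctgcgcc

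Within the tiles, single cytosines were either almost free of methylation or almost fully methylated. Of their cytosines 92.7% averaged under 5%. Another 29104 cytosines (5.42%) averaged 50% or more, and 98.8% of those were above 90%. Between 20 and 80% there were 923 cytosines, or 0.172%. The highly methylated cytosines were spread through the tiles, with a median of 4 per tile and a median spacing of 68 bp (quartiles 45 and 99). The tiles without any such cytosine numbered 518.

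In the placed promoters, which of the 2 levels a cytosine had followed its 4-base context. The 5612 cytosines in CCGG averaged 97.0%, and 99.1% of them were at 80% or more. The 102859 cytosines of all other CpG contexts averaged 1.35%, and 99.5% of them were under 5%. In Gabbr2 the 4 measured CCGG cytosines of the printed stretch lay between 97.0 and 98.1%, whereas its 66 other cytosines lay between 0.357 and 3.2%. In Kcnc1 the 5 measured CCGG cytosines lay between 96.7 and 98.3%, and the 49 others between 0.578 and 3.79%. Of all 5589 highly methylated cytosines in placed promoters of these tiles, 5578 (99.8%) were in CCGG. The 11 others each had a context that differed from CCGG in 1 letter, out of 55745 such cytosines. None of the 47114 cytosines whose context differed in 2 letters was high.

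**Figure D1:**
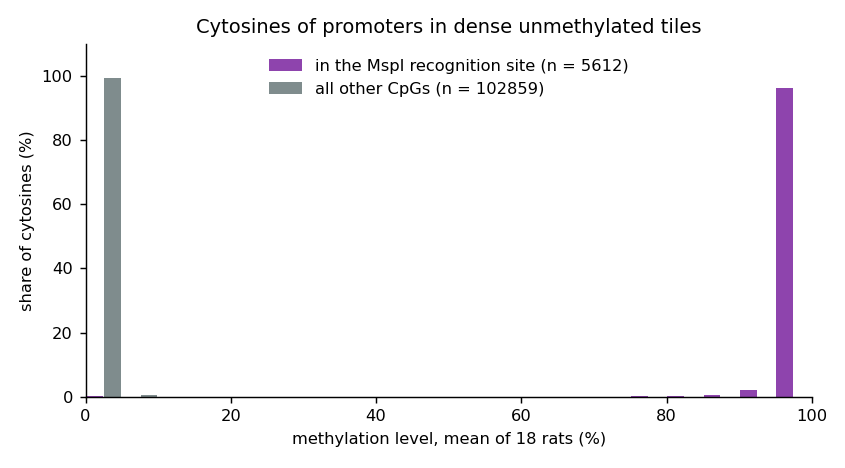
Share of cytosines (vertical axis, percent) at each methylation level (horizontal axis, percent, mean of 18 rats, bins of 5 points) in promoters placed in the dense unmethylated tiles. Cytosines in the MspI site (purple, n = 5612) gather above 95% and all other CpGs (grey, n = 102859) under 5%.

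The split was not particular to these tiles. CCGG cytosines averaged 97.2% in placed promoters of dense tiles with a level of 10 to 20%, and 97.1% in all placed promoters, where other cytosines averaged 1.76% and 1.88%. The site also bore on what was measured. In the placed promoters of the tiles, CpGs were counted from the first to the last measured one. Of the CCGG CpGs in that span 66.9% had a value on at least 1 strand, and 11.8% on both. Of the other CpGs in it 90.2% had a value and 79.9% had one on both strands. The protocol in the labels has DNA cut at these sites, its ends repaired, and adapters with methylated cytosines joined before bisulfite. The part of these steps in the level at the site was not tested.

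The level of a tile followed its share of highly methylated cytosines. Across the 6356 tiles, the share of cytosines at 50% or more and the tile level had a Pearson's r of 0.943. This describes tiles that share libraries. The tile level is an average over these same cytosines, so that the relation and the class medians below are largely arithmetic and carry no test. The 518 tiles with no such cytosine had a median level of 1.35%. Tiles with 1 had 3.34%, tiles with 2 had 5.02%, tiles with 3 had 6.68% and tiles with 4 had 7.52%. Without these cytosines the medians of the same classes were between 1.35 and 1.51%, and the median of all members was 1.43%. Of the members, 94.8% were then under 3%.

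The limit of 10% cut through a continuous population of tiles. Just inside it lay chr16:3817001-3818000, chr7:3333001-3334000 and chr7:12917001-12918000, all less than 0.01 points under it. Just outside lay chr5:104941001-104942000, chr2:248840001-248841000 and chr2:189818001-189819000, all less than 0.01 points above it. These 6 tiles held 4 to 18 highly methylated cytosines. Of the 5155 dense tiles between 10 and 20%, 5074 fell under 10% when cytosines of 50% or more were left out, and their median was then 1.75%. Such cytosines made up 11.5% of a tile on average there, against 5.17% in the members. Counted without them, 11791 of the 12629 dense tiles were under 10%. The limit of 40 cytosines was as gradual, with 119 members at exactly 40 and 93 tiles under 10% at 39.

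**Figure D2:**
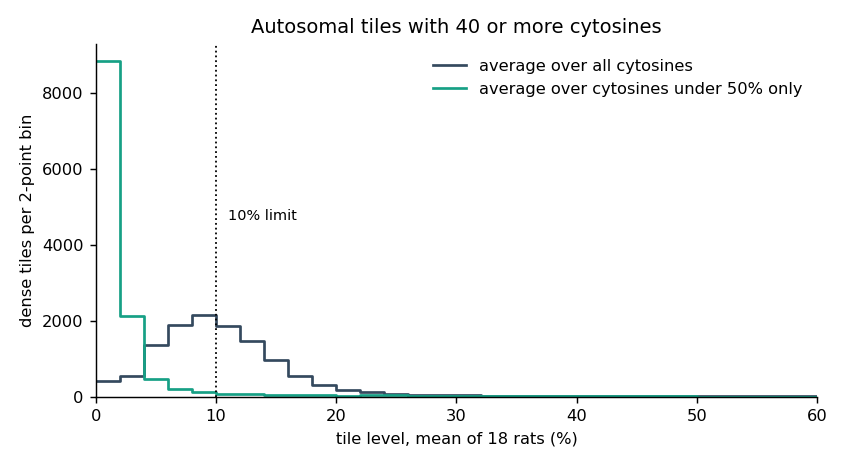
Number of autosomal tiles with 40 or more cytosines (vertical axis) at each tile level (horizontal axis, percent, mean of 18 rats, bins of 2 points, shown up to 60%), averaged over all cytosines (dark line) or over cytosines under 50% (green line). The dotted line is the 10% limit, which divides the dark curve near its peak, while 11791 of 12629 tiles lie under it on the green one.

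The members held 40 to 279 cytosines, with a median of 74. Their level ranged from 0.349% to just under 10%, with a median of 6.93%. Denser tiles had slightly more highly methylated cytosines and slightly lower levels elsewhere. In the 1572 tiles with 40 to 54 cytosines the median share of high cytosines was 4.44%, and the other cytosines had a median level of 1.5%. In the 1622 tiles with 105 to 279 cytosines these values were 6.14% and 1.36%. The tile with the most cytosines, chr5:126511001-126512000, held 279, of which 20 were high, and had a level of 8.14%. The next were chr1:124653001-124654000 with 257 cytosines and chr1:124815001-124816000 with 249.

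Most members had no other member beside them. They formed 5592 runs of adjacent tiles, of which 4867 were a single tile. The longest run, of 4 tiles and 467 cytosines, was chr12:23149001-23153000, with a level of 7.16%. Among the runs of 3 tiles, those with the most cytosines were chr1:124814001-124817000, with 510, and chr15:88620001-88623000, with 487. The 4917 tiles directly beside a member, not members themselves, had a median level of 13.5% (quartiles 7.70 and 23.1) and a median of 20 cytosines. Of these neighbours, 535 were above 50%.

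Every autosome held members, between 160 on chromosome 11 and 768 on chromosome 1. They made up 3.54% of tiles with 3 or more cytosines on chromosome 12 and 5.12% on chromosome 10. Their mean level lay between 6.26% on chromosome 18 and 6.77% on chromosome 20. The share of highly methylated cytosines ran from 5.24% on chromosome 18 to 5.84% on chromosome 15. No chromosome stood apart from the rest in these values.

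The rats differed more than the groups did. The mean level over the 6356 tiles was 6.98, 6.26, 7.45 and 6.01% in the kindling seizure rats, and 7.04, 6.08, 6.68 and 5.91% in the kindling sham rats. It was 6.83, 7.02 and 6.79% in the kainic acid seizure rats, and between 5.98 and 6.97%, with a median of 6.48%, in the 7 kainic acid sham rats. The groups overlapped in both models, and kindling seizure rat 3 was the highest of all.

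The group means were 6.68% ± 0.660 in kindling seizure rats and 6.43% ± 0.523 in kindling sham rats (SD, n = 4 each). The difference of 0.247 points had a p of 0.571 in a two-sided exact permutation test of 70 arrangements, whose smallest p is 0.0286. Kainic acid seizure rats had 6.88% ± 0.126 (SD, n = 3), and kainic acid sham rats 6.48% ± 0.386 (SD, n = 7). That difference of 0.398 points had an exact permutation p of 0.117, with a smallest p of 0.0167 among 120 arrangements. The kainic acid difference exceeded the kindling difference by 0.152 points (exact permutation p of 0.760), and kainic acid sham rats exceeded kindling sham rats by 0.0529 points (exact permutation p of 0.873). Adjusted over the 4 comparisons, the smallest p was 0.467. Without kindling seizure rat 3 the kindling difference was -0.0121 points. The p-values measure the spread between these rats, which the labels give as separate animals.

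Within the kindling groups, low and highly methylated cytosines spread about as widely between rats, in points. For low cytosines the SD was 0.676 points in seizure rats and 0.523 in sham rats, and for high ones 0.457 and 0.532. In the kainic acid groups the low cytosines spread more widely. Their SD was 0.135 points in seizure rats and 0.401 in sham rats, against 0.0419 and 0.0461 for high ones. The low cytosines are the far larger class. Over cytosines under 50%, the mean was 1.94, 1.26, 2.48 and 0.983% in the kindling seizure rats, and 2.03, 1.05, 1.68 and 0.920% in the kindling sham rats. It was 1.84, 2.04 and 1.79% in the kainic acid seizure rats, and between 0.945 and 1.97% with a median of 1.47% in the kainic acid sham rats. Kindling seizure rat 3 was again the highest, and each group overlapped its sham group. The highly methylated cytosines averaged between 96.6 and 98.3% per rat and make up 5.42% of the cytosines. The tests took low cytosines averaged within each tile and then over tiles, not the averages over all low cytosines listed here. On that measure the kindling groups differed by 0.248 points (exact permutation p of 0.571). The kainic acid groups differed by 0.424 points (exact permutation p of 0.117).

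**Figure D3:**
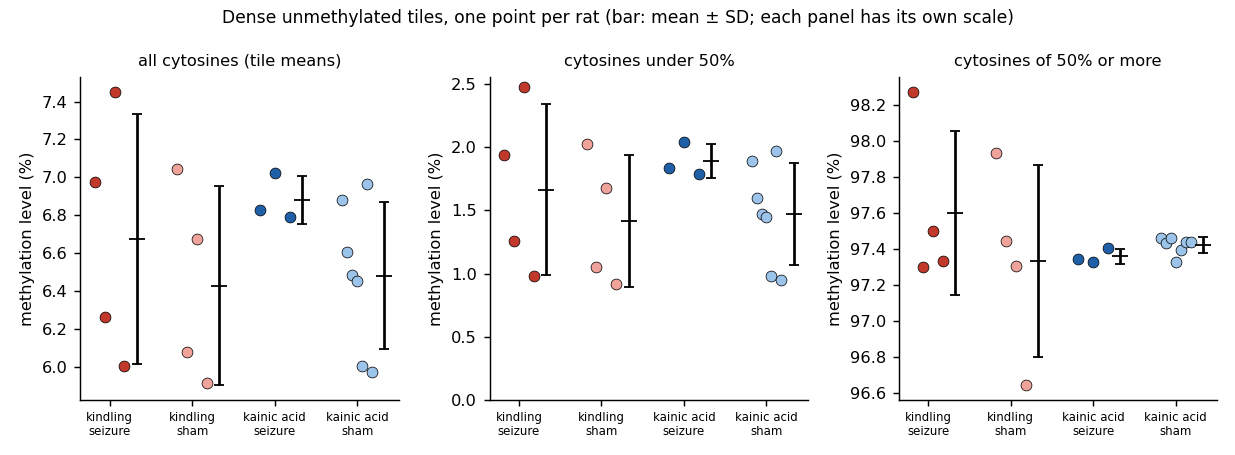
Methylation level (vertical axes, percent, a scale for each panel) of each rat over the 6356 tiles, for all cytosines, for cytosines under 50% and for cytosines of 50% or more. Points are rats in the 4 groups (horizontal axis), and bars are the mean and SD of a group. Rats spread from 0.920 to 2.48% over the low cytosines in the middle panel, and seizure and sham groups overlap.

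The low level of a rat in the tiles followed its level at low cytosines outside them. The cytosines outside were chosen by a low level in the same rats and included those of dense tiles above the 10% limit. The 2 sets are thus alike, and their close relation is a description. Over 594161 cytosines outside the tiles that also averaged under 10%, the rats ranged from 1.43 to 3.30%. The level in the tiles was 64.2 to 75.1% of that level, and the order of the rats was nearly the same. Over the 18 rats Pearson's r was 0.9995 (permutation p of 1e-05) and Spearman's rho 0.998 (permutation p of 1e-05). These are the smallest p-values the resampling can give, and they are 3e-05 when adjusted over 6 relations. Without the 2 rats farthest from the median r was 0.9993. Within the 8 kindling rats r was 0.9997 (permutation p of 2e-05), and within the 10 kainic acid rats 0.9994 (permutation p of 1e-05). The share of low cytosines in the tiles read at exactly 0 was 22.7 to 58.2% per rat. Depth behind the values is unknown, and its part in these shares was not tested.

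By chromosome, the difference between group means was positive on all 20 chromosomes in both models. It lay between 0.219 and 0.285 points in kindling and between 0.347 and 0.436 points in the kainic acid model. Chromosomes share the rats, so that 20 positive signs are not 20 observations. None passed, with smallest adjusted p-values of 0.600 in kindling and 0.158 in the kainic acid model (two-sided exact permutation tests, adjusted over 20 chromosomes). The smallest unadjusted p-values of these exact permutation tests were 0.514 and 0.0833.

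**Figure D4:**
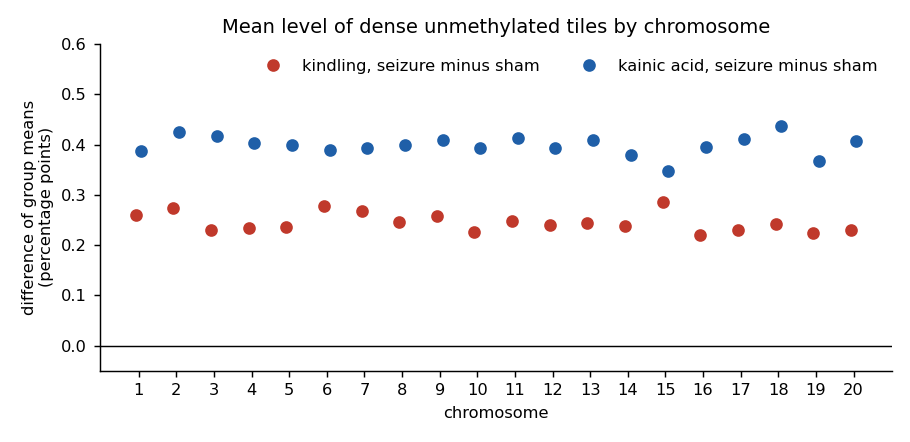
Difference in mean tile level, seizure minus sham (vertical axis, percentage points), on each autosome (horizontal axis) for kindling (red) and the kainic acid model (blue). Points lie between 0.219 and 0.285 for kindling and between 0.347 and 0.436 for the kainic acid model, and no chromosome passed its test.

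No member tile passed the test in any comparison. All 6356 were among the 151444 tiles tested with limma (1 fit of the 4 groups, Benjamini-Hochberg adjustment over all tiles), and the threshold was an adjusted p of 0.05. For seizure against sham, 0 of 151444 tiles (0%) were called in kindling and 1 (0.00066%) in the kainic acid model. The call was not a member. No tile (0%) was called for the difference between models or for kainic acid sham against kindling sham. The smallest adjusted p of a member was 0.876 in kindling and 0.983 in the kainic acid model. A 95% interval for a member had a median half-width of 0.909 points in kindling and 0.887 points in the kainic acid model.

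At an unadjusted p under 0.05, 58 members (0.913%) were found in kindling, against 5.09% of all tiles. Of these, 56 were higher and 2 lower in seizure rats, classes that held 3.18% and 1.91% of all tiles. In the kainic acid model 291 members (4.58%) were found, against 4.06% of all tiles. In the difference between models 44 members (0.692%) were found, against 4.32% of all tiles, and in the sham comparison 27 (0.425%), against 5.53%. Between models 36 of the 44 were positive and 8 negative, with 2.11% and 2.21% of all tiles in these classes. Kainic acid sham rats were higher than kindling sham rats in 13 of the 27 and lower in 14, with 2.68% and 2.85% of all tiles in these classes. The share of members was under the background in 3 of the 4 comparisons, also without any single rat. In the kainic acid model it was on either side of the background, depending on the rat left out.

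These counts moved with single rats. In kindling the 58 became 395 (6.21%, against 8.24% of all tiles) without seizure rat 4, 218 without sham rat 1 and 140 without seizure rat 2. They became 37 without sham rat 2, 34 without sham rat 4, 28 without seizure rat 3 and 26 without seizure rat 1. In the kainic acid model the 291 became 139 (2.19%, against 3.92%) without seizure rat 2, 167 without sham rat 7 and 174 without sham rat 5, and were between 226 and 436 without any other rat. Between models the 44 became 140 without kindling seizure rat 3, 104 without kindling sham rat 4 and 82 without kindling sham rat 2. They became 25 without kindling sham rat 1, 27 without kindling seizure rat 2 or kainic acid sham rat 5, and 28 without kainic acid seizure rat 2. Between sham groups the 27 became 64, 44 and 60 without kindling sham rats 1, 2 and 4 in that order, 41 without kainic acid sham rat 7, and 18 to 37 without any other rat.

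The sign of the small differences leaned one way. Tiles share the rats, so that shares of tiles are not counts of independent observations and carry no test. In kindling 82.1% of members had a positive difference, against 58.7% of all tiles, with a median of 0.242 points, against 0.192 points over all tiles. In the kainic acid model 92.1% were positive, against 60.8%, with a median of 0.382 points, against 0.242 points over all tiles. Between models 65.1% of members were positive, against 51.8% of all tiles, and between sham groups 61.1%, against 50%. Of the 291 kainic acid members, 287 were higher and 4 lower in seizure rats, classes that held 2.54% and 1.52% of all tiles. With the mean level of each rat as a covariate, the unadjusted p was under 0.05 in 249 members (3.92%, against 3.74% of all tiles), of which 110 were higher. In kindling the covariate gave 255 members (4.01%, against 5.14% of all tiles), of which 26 were higher, against 56 of 58 without it.

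Members whose groups did not overlap were counted in the same way, again over tiles that share the rats. Seizure and sham rats of the kindling model were fully separated in 37 members (0.582%), against 2.14% of all tiles. In the kainic acid model 256 members (4.03%) were separated, against 1.87% of all tiles, and 254 of them were higher in seizure rats. Kainic acid sham and kindling sham rats were separated in 6 members (0.0944%), against 0.718% of all tiles.

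The tiles with the smallest p-values show how small the differences were. In kindling it was smallest in chr7:130154001-130155000, with 9.93, 8.34, 8.39 and 7.84% in seizure rats and 7.89, 6.88, 5.65 and 6.29% in sham rats. The groups overlapped at 1 pair of rats, and the difference was 1.95 points (SE 0.506, limma adjusted p of 0.876). The next were chr9:10536001-10537000, with 1.16 points, and chr2:233620001-233621000, with 1.60 points. Lower in seizure rats were chr17:62463001-62464000 by -0.941 points, chr5:103479001-103480000 by -1.39 points and chr7:11930001-11931000 by -1.25 points. The last held 2 cytosines that varied by over 60 points between rats, and without those its difference was -0.186 points.

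In the kainic acid model chr19:59492001-59493000 had 8.02, 7.31 and 7.11% in seizure rats, against 5.27 to 6.57%, with a median of 5.83%, in sham rats. All seizure rats were above all sham rats, and the difference was 1.60 points (SE 0.348, limma adjusted p of 0.983). In chr8:126248001-126249000 the difference was 1.53 points, with 10.1, 10.1 and 10.2% in seizure rats, against 8.10 to 9.04%, with a median of 8.60%, in sham rats. In chr16:21294001-21295000 it was 1.56 points, with 9.84, 10.3 and 10.5% in seizure rats, against 8.14 to 9.06%, with a median of 8.84%, in sham rats. All 3 tiles had groups that did not overlap, and no promoter was placed in them.

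The lower tiles of the kainic acid model were led by chr11:32308001-32309000. It had 6.95, 7.15 and 7.47% in seizure rats, against 8.78 to 14.1%, with a median of 10.2%, in sham rats, a difference of -3.43 points (SE 1.02, limma adjusted p of 0.999). The kindling seizure rats had 8.11, 7.69, 12.1 and 9.89% there, and the kindling sham rats 10.3, 8.77, 7.28 and 9.41%. In chr11:67647001-67648000 the difference was -0.928 points. In chr16:21293001-21294000 it was -0.863 points, and without the 2 cytosines that varied by over 60 points it was 0.0526 points.

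Between models, the largest positive value among the tiles named by p was in the same chr16:21294001-21295000, with 2.24 points (limma adjusted p of 0.99). There the kindling seizure rats had 9.53, 9.88, 9.17 and 8.35% and the kindling sham rats 10.4, 9.26, 10.2 and 9.80%. Kainic acid sham rats were 1.27 points below kindling sham rats (limma adjusted p of 0.611). chr12:30004001-30005000 gave -1.72 points between models and 1.17 points between sham groups. Without its 2 cytosines that varied by over 60 points these were -0.344 and 0.168 points. The other tiles named between models were chr19:59492001-59493000 (1.84 points), chr13:79087001-79088000 (2.20 points), chr11:32308001-32309000 (-3.94 points) and chr16:21293001-21294000 (-1.51 points). Between sham groups they were chr4:88565001-88566000 at the Lancl2 promoter (0.891 points), chr8:65413001-65414000 at the Thsd4 promoter (0.648 points), chr10:39227001-39228000 (-1.21 points) and chr12:46920001-46921000 (-1.15 points).

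No tile had a rat above 20% over both strands. On the plus strand alone 5 tiles had one, and on the minus strand alone 1. The highest level of a rat in any member was 17.3%, in kindling sham rat 3 at chr4:166662001-166663000, where the next rat had 12.0% and the median of the 18 rats was 9.25%. That was the only member with a rat above 15%. A rat was above 13% in 6 members, above 12% in 32 and above 10% in 1311. The range over the 18 rats had a median of 2.03 points and a maximum of 9.44 points, and 25 members had a range of 5 points or more.

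Kindling seizure rat 3 was the highest in 3 of the 10 members with the highest rats. The other 9 tiles were chr11:32308001-32309000 (14.1%, kainic acid sham rat 1), chr2:128819001-128820000 (13.9%, kainic acid seizure rat 1), chr6:73345001-73346000 (13.9%, kindling seizure rat 3) and chr7:711001-712000 (13.8%, kainic acid sham rat 4). They went on with chr7:14165001-14166000 (13.4%, kainic acid sham rat 6), chr8:47236001-47237000 (12.9%, kindling seizure rat 3) and chr1:228338001-228339000 (12.9%, kindling seizure rat 3). The last were chr10:94220001-94221000 (12.8%, kindling sham rat 3) and chr10:80789001-80790000 (12.7%, kainic acid sham rat 3). None of these tiles held a cytosine that varied by over 60 points, and none had a placed promoter.

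Over the low cytosines alone, single rats stood out in some tiles and not in others. At chr4:166662001-166663000 kindling sham rat 3 had 12.5%, against a median of 3.85% over the rats, and 13 of its 66 low cytosines were above 20% in that rat. At chr2:128819001-128820000 kainic acid seizure rat 1 had 12.0%, against a median of 5.33%, but kindling seizure rat 1 had 10.5% and kindling sham rat 3 had 10.1%. At chr6:73345001-73346000 kindling seizure rat 3 had 6.23%, the next rat 2.60% and the median rat 1.78%, and 12 of 109 cytosines were above 20%. A rat was above 5% over the low cytosines in 277 members and above 10% in 10. These counts are not all rises of single rats. The highest, chr7:140577001-140578000, had 12.5% in kainic acid sham rat 6, 10.4% in the next rat and a median of 8.44%. At chr4:120125001-120126000 the highest rat had 11.3%, the next 11.1%, and the median was 9.59%. The highest rat of those 277 was kindling seizure rat 3 in 90 of them, and kainic acid sham rat 6 in 34.

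Among the 10 tiles in which a rat stood farthest above the median of the rats over low cytosines, 2 held a placed promoter. At Fundc2, whose product is a mitochondrial outer membrane protein (chr18:402001-403000), kainic acid sham rats 4 and 6 had 6.49 and 5.92%, against a median of 2.03%, and none of its 80 low cytosines was above 20% in rat 4. At Ccnb2, the mitotic cyclin B2 (chr8:76861001-76862000), kainic acid sham rat 5 had 7.69%, kainic acid sham rat 3 had 5.11% and the median was 3.25%. There 6 of 61 low cytosines were above 20% in kainic acid sham rat 5, and the median cytosine was at 1.52%. The rise at Fundc2 was thus spread over cytosines, and that at Ccnb2 sat in a few.

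At single cytosines, 3252 of the 507405 low ones (0.641%) had some rat above 20%. In 1343 of them a single rat was above it, and in 169 all 18 were. By rat, kindling seizure rat 3 accounted for 209 of the 1343, kindling sham rat 3 for 174 and kindling sham rat 4 for 138. Kainic acid sham rat 7 accounted for 12.

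Among cytosines with a range over rats of 10 points or more, none in the tiles was called. Of the 794376 such cytosines tested, 30271 lay in members, out of 536509 member cytosines in all. For seizure against sham limma called 0% of all cytosines in kindling and 0.000629% in the kainic acid model, and 0 in members in either. For the difference between models it called 0.000629% and for the sham comparison 0%, again 0 in members. Without the filter on the range, limma called 41 of 533924 member cytosines (0.00768%) in the kainic acid model, all higher in seizure rats, against 110 of 2271214 cytosines (0.00484%) in all. It called 0 in members in the other 3 comparisons. With the filter, at an unadjusted p under 0.05 there were 1467 member cytosines (4.85%) in kindling, against 5.72% of all cytosines tested, and 1690 (5.58%) in the kainic acid model, against 3.82%. There were 1219 (4.03%), against 4.63%, between models, and 1384 (4.57%), against 6.16%, between sham groups.

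Among the cytosines with the smallest p-values, some lay at high or low levels and moved a little. One was the CCGG cytosine of the Gramd4 promoter (chromosome 7, position 126939790). It had 95.8, 100, 100 and 96.4% in kindling seizure rats, against 84.6, 81.5, 93.8 and 76.2% in kindling sham rats. The groups did not overlap, and the difference was 14.1 points (SE 2.79, limma adjusted p of 0.572). At the Inpp5f promoter, of an inositol phosphatase, 2 neighbouring cytosines outside CCGG (chromosome 1, positions 200037533 and 200037519) averaged 15.2 and 14.7% in kainic acid seizure rats, against 2.36 and 2.37% in kainic acid sham rats. Their limma adjusted p-values were 0.646 and 0.793.

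One lay between. In chr16:21294001-21295000 the minus strand cytosine at position 21294501 had 38.0, 30.6 and 34.3% in kainic acid seizure rats, against 14.8 to 23.2%, with a median of 19.4%, in kainic acid sham rats. The groups did not overlap, and their means were 34.3 and 19.3% (SE of the difference 2.86 points, limma adjusted p of 0.673). It averaged 21.5% in kindling seizure rats and 24.9% in kindling sham rats.

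Others varied widely within at least 1 group. The minus strand cytosine at position 51755203 of chromosome 15 had 8.70, 2.5, 0 and 97.4% in kindling seizure rats. Kindling sham rats had 85.9 to 100% there (-66.4 points, limma adjusted p of 0.581). In kainic acid seizure rats, position 21293059 of chromosome 16 was lower by -65.3 points (limma adjusted p of 0.899). Position 21293060 there was lower by -72.9 points, and position 16627127 of chromosome 10 by -52.3 points. In chr12:30004001-30005000 the minus strand cytosine at position 30004618 averaged 76.9% in kindling seizure rats (19.3 to 97.7%) and 22.5% in kindling sham rats (1.37 to 39.3%). It averaged 45.1% in kainic acid seizure rats (19.6 to 88.6%) and 97.9% in kainic acid sham rats (96.3 to 98.8%). The difference between models was -107 points (SE 20.2, limma adjusted p of 0.458), and the sham groups differed by 75.4 points (limma adjusted p of 0.201). At the CCGG cytosine of Scgb1d2l1 (chromosome 1, position 225583421) kainic acid sham rats averaged 2.13% and kindling sham rats 57.4% (limma adjusted p of 0.374). The kindling sham rats had 38.2, 95.1, 96.3 and 0% there, and no rat of the other groups was above 5.56%.

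Where their letters are known, the cytosines that varied most between rats were in CCGG or in a context that differed from it in 1 letter. In the members 231 cytosines, of 203 CpGs in 196 tiles, had a range over 60 points. Of these, 41 lay in placed promoters, 30 in CCGG and 11 in contexts that differed from it in 1 letter. None had a context that differed in 2 letters, although 47114 of the placed cytosines were of that kind. The context of the rest is unknown.

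Frs2 shows one such site, the second capital stretch in its sequence. On the plus strand of the chromosome kindling seizure rats had 92.1, 97.4, 13.9 and 95.7%, and kindling sham rats 34.6, 16.3, 100 and 96.8%. Kainic acid seizure rats had 16.5, 83.3 and 24.1%, and kainic acid sham rats ran from 15.3 to 95.2%. On the minus strand the kindling seizure rats had 100, 97.8, 14.2 and 95.7%, so that both strands gave the same rats as low. Low and high rats were found in every group.

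Maf, a bZIP transcription factor, had another in its promoter (chromosome 19, position 48196885). Kindling seizure rats had 95.4, 94.1, 95.8 and 19.7%, kindling sham rats 98.4, 93.7, 16.5 and 100%, kainic acid seizure rats 64.2, 22.5 and 88.5%, and kainic acid sham rats 16.8 to 97.1%. At Adam17, the protease that sheds tumour necrosis factor, 2 CCGG sites ran against each other. The cytosine at position 43448327 of chromosome 6 had 26.1, 17, 21.4 and 95.3% in kindling seizure rats and 94.9, 100, 0.826 and 29.3% in kindling sham rats. The one at 43448377 had 35.8, 39.3, 34.6 and 0% in kindling seizure rats and 0.427, 0, 87.9 and 41.2% in kindling sham rats. Every rat above 90% at the first cytosine was under 1% at the second.

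**Figure D5:**
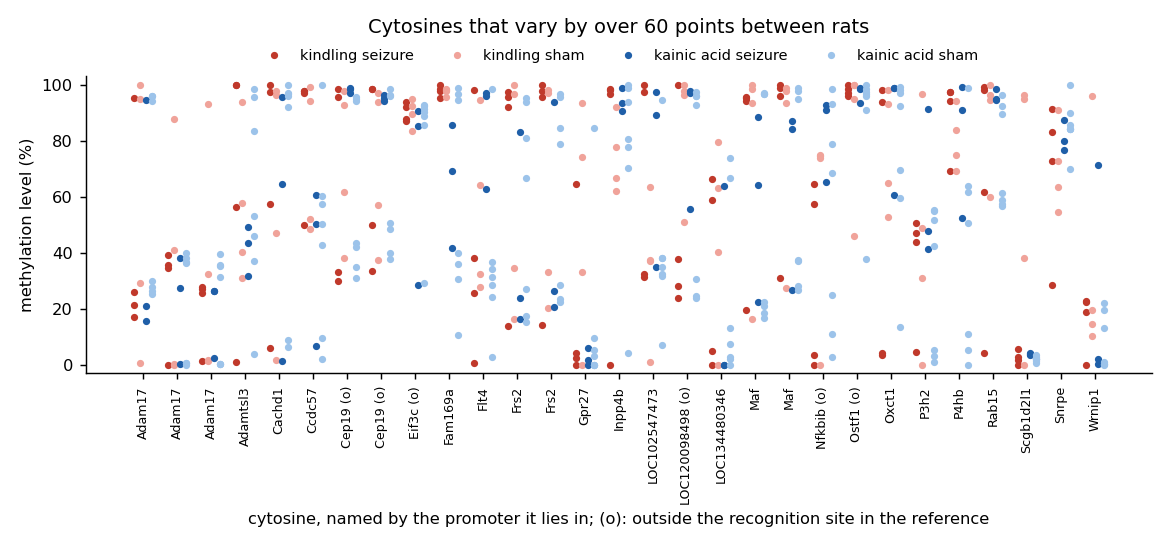
Methylation level (vertical axis, percent) of each rat at the cytosines of placed promoters that departed from the rule of their context and varied by over 60 points between rats (horizontal axis, by promoter). Each point is a rat, coloured by group. Levels spread from near 0 to near 100%, over the 18 rats, and at Frs2 and Maf every group holds both high and low rats.

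Other CCGG cytosines were low in all rats. Of the 5612, 53 averaged under 80%, and 23 of these varied by over 60 points. In 18 all rats were under 20%, and in 12 all were under 5%. Tmem230 is an example, at the third capital stretch of its sequence. Its plus strand cytosine ran from 0 to 1.22% over the 18 rats and its minus strand cytosine from 0 to 3.90%. At Tdp2, which encodes tyrosyl-DNA phosphodiesterase 2, the CCGG cytosine averaged 0.113%. At Neto2, an auxiliary subunit of kainate receptors, the 2 strands averaged 0.991 and 3.35%.

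Of the 11 cytosines that were high outside CCGG, 5 were above 80% in every rat. In Fam78a it read CCGA on the strand measured, the plus strand of the chromosome, and it lay between 95.5 and 100% in all 18 rats. The letters printed for Fam78a run along the opposite strand, where this site reads TCGG. Heg1, Thbs4, Arhgef11 and Cuta held the other four. The remaining 6 varied by over 60 points, among them both strands of a CpG at Cep19, a centrosomal protein. On its plus strand kainic acid seizure rats had 98.5, 97.2 and 98.8%, kainic acid sham rats 31.0 to 95.6%, kindling seizure rats 98.5, 33.3, 29.9 and 95.7%, and kindling sham rats 61.7, 97.8, 38.2 and 92.9%. Whether the rats carry other letters there than the build was not tested.

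Promoters of 6 gene lists were looked up among the placed ones. Of 28 activity-regulated genes, which neurons induce after firing, 7 had their promoter in a member. The other lists gave 5 of 30 GABA and glutamate receptor and transporter genes, 5 of 23 ion channel genes of epilepsy, 4 of 19 genes of the methylation machinery, 4 of 48 homeobox and developmental factors, and 6 of 27 housekeeping genes. In the order given, only 9, 6, 6, 6, 9 and 10 genes of the lists had a placed promoter. Genes outside the member counts had no placed promoter or lay in another tile, and are not described. None of the 31 tiles was called in either model. Among all tiles tested 0% and 0.00066% were called in kindling and the kainic acid model.

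The activity-regulated promoters were Dusp1, Dusp5, Gadd45b, Ier2, Jund, Nptx2 and Nr4a1. Outside CCGG their levels lay between 0.152 and 4.05% in every rat, and CCGG cytosines averaged 97.3 to 98.5%. Gadd45b, which takes part in activity-induced demethylation, had 1.57, 1.12, 2.44 and 0.805% in kindling seizure rats and 2.66, 0.915, 1.17 and 0.450% in kindling sham rats. It had 1.5, 2.11 and 1.38% in kainic acid seizure rats, and 0.409 to 1.97%, with a median of 1.24%, in kainic acid sham rats. The groups overlapped in both models. Dusp1 and Dusp5, phosphatases of MAP kinases, ran over the 18 rats from 0.509 to 2.64% and from 0.550 to 4.05%. All 7 tiles had positive differences in both models, with medians of 0.232 points in kindling and 0.582 points in the kainic acid model, beside 82.1% and 92.1% positive over all members.

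The receptor and transporter promoters were Gabbr2, Gabra5, Gabrd, Slc1a2 and Slc32a1. Outside CCGG they lay between 0.395 and 2.47% in every rat. Slc32a1, which loads GABA into vesicles, ran from 0.764 to 1.86%. Gabra5, a GABA-A receptor subunit of hippocampal pyramidal cells, ran from 0.738 to 2.33%, and Slc1a2, the main glutamate transporter of astrocytes, from 0.395 to 2.43%. The tile differences had medians of 0.157 points in kindling and 0.292 points in the kainic acid model.

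The channel promoters were Cacna1a, Cacna2d2, Kcnc1, Kcnma1 and Kcnt1. Cacna1a, the pore of P/Q-type calcium channels, ran from 0.910 to 3.17% outside CCGG, and Cacna2d2, an auxiliary calcium channel subunit, from 0.724 to 1.65%. Kcnt1, a sodium-activated potassium channel, was the highest of the list, with 3.24 to 5.75%. Its lowest rat was kainic acid seizure rat 1 and its highest kainic acid sham rat 3. The tile differences had medians of 0.266 points in kindling and 0.287 points in the kainic acid model.

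The methylation machinery was represented by Kdm2b, Mbd1, Tet2 and Tet3. Tet2, an enzyme that oxidises methylcytosine, was the lowest promoter of the 6 lists, with 0.178 to 0.598% outside CCGG. Tet3 ran from 0.358 to 2.40%, Mbd1, a reader of methylated CpGs, from 0.516 to 3.56%, and Kdm2b, a CXXC protein bound at islands, from 0.403 to 3.03%. The kainic acid difference was positive in 2 of these 4 tiles.

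The developmental factors were Foxd3, Lhx2, Neurog1 and Wt1. Lhx2, a LIM homeobox factor of the forebrain, had the highest single value of the lists, 6.83% in kindling seizure rat 3, against 0.724% in kainic acid sham rat 7. Foxd3 ran from 0.843 to 5.01% and Neurog1 from 0.727 to 2.74%. In this list 1 tile of 4 had an unadjusted limma p under 0.05 in kindling, where 5.09% of all tiles had one, and none in the kainic acid model, where 4.06% had one. The median differences were 0.573 and 0.190 points. The housekeeping promoters were Chmp2a, Eef1a1, Eef2, Rab7a, Snrpd3 and Tbp. Chmp2a, of the ESCRT machinery, ran from 0.517 to 4.46%, Rab7a, a GTPase of late endosomes, from 0.560 to 3.25%, and Snrpd3, a spliceosomal core protein, from 0.548 to 2.91%. The housekeeping tiles had a median difference of 0.420 points in kindling, and of 0.432 points in the kainic acid model.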

How the data were processed

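The authors deposited a methylation fraction (beta value, 0 to 1) for each CpG cytosine and strand in each of 18 rats. Bismark, Bowtie2, methylKit, Trim Galore and FastQC, and the build rn6, are named without roles in the submitters' processing notes. The sources used here give no filter applied before deposit. No read counts are in the table, so that depth is unknown.

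Fractions were turned into percent and averaged per tile of 1000 bp. Group differences were tested with limma 3.58.1 (R 4.3.3, mean-variance trend, tiles with 3 or more cytosines, cytosines with a range of 10 points or more) and, per rat, by exact permutation (scipy 1.17.1). Relations over rats used 100000 resamples. The fits were checked on simulated data. Cytosines of 50% or more are called highly methylated, the others low.

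No rn6 genome or annotation was used. RefSeq promoters of GRCr8 were therefore placed by matching their CpG spacing (5 consecutive gaps, 12 or more measured CpGs, every measured CpG explained, 1 place only), a choice made after the data were seen. Under that choice the 3 genes per list with the widest tile range, and the example promoters, were named. Tiles and cytosines were otherwise named by the 3 smallest p-values per direction and contrast, the 10 highest single-rat levels, the most cytosines and the longest runs. The members, lists, exceptions and rules were chosen with earlier results of these data known. Alternatives covered member definitions, strands, scales, weights, covariates, the replicate number as a block and leaving out each rat.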

Additional observations from a re-analysis of the deposited data

How the results depend on the processing

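Leaving out 1 rat moved 3 of the 4 mean differences across 0. The kindling difference ranged from -0.0121 points, without kindling seizure rat 3, to 0.469 points, and the kainic acid difference from 0.314 to 0.479 points. The difference between models ranged from -0.0710 to 0.410 points, and was negative without kindling seizure rat 4 and, at -0.0526 points, without kindling sham rat 1. The sham difference ranged from -0.118 points, without kindling sham rat 4, to 0.257 points, and was also negative without kindling sham rat 2 (-0.0628), kainic acid sham rat 1 (-0.0140) and kainic acid sham rat 6 (-0.0279). None of these passed. Leaving out 1 rat gave 0 to 1 called cytosines in members in kindling, between models and between sham groups, and 0 in the kainic acid model. Without the range filter on cytosines 41 (0.00768%) were called in the kainic acid model, all higher in seizure rats, against 0.00484% of all cytosines. A level above 15% in some rat was found in 1 tile. A level above 20% was found in 5 tiles on the plus strand alone and in 1 on the minus strand alone. Without cytosines of 50% or more the kainic acid difference of chr16:21293001-21294000 was 0.0796 points. The causes were not tested. When the kainic acid rats were fitted alone, 622 members (9.79%) had an unadjusted limma p under 0.05, against 5.58% of all tiles. The member tiles called remained 0 under every limma setting tried. The replicate numbers of seizure and sham rats do not pair the rats: correlations of their deviations were between -0.104 and 0.158. With the number as a block the kindling difference was 0.247 points (exact permutation p of 0.25). The kainic acid difference, over 3 pairs, was 0.222 points (exact permutation p of 0.5). With so few pairs neither of these permutation tests could give a p under 0.05, so that they decide nothing. Member tiles and cytosines called were 0 with the block, and 87 members in kindling (1.37%, against 5.46% of all tiles) and 75 in the kainic acid model (1.18%, against 3.92%) had an unadjusted limma p under 0.05. Leaving out highly methylated cytosines, and taking all dense tiles under 10% without them, were chosen after seeing the data and kept the 4 mean differences on the same side. Unknown depth limits single values, most of all low ones near 0.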
